A study of Mus musculus with 19 samples.

Results

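The collagen genes of mouse mammary tissue were described in total RNA-seq libraries of pregnant females. Members were all genes in the count files whose symbol has the form of a collagen chain (Col, a type number, a and a chain number) and whose reads over all 19 libraries came to at least 10. All 44 such symbols passed, among 18216 of 24421 genes that did so. The 44 genes were grouped by the kind of structure their product builds. There were 11 fibrillar collagens (types I, II, III, V, XI, XXIV and XXVII), 6 type IV chains of the basement membrane, 3 collagens of the basement membrane zone (VII, XV and XVIII), 3 network-forming chains (VIII and X), 6 type VI chains of beaded filaments, 9 fibril-associated collagens (FACIT), 4 transmembrane collagens (XIII, XVII, XXIII and XXV) and 2 others (XXVI and XXVIII).

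Tissue came from mice labelled C57BL/6 (C57BL/6N in the methods of the study), and the mutants were made by CRISPR/Cas9 injection into fertilized eggs and used as homozygotes. WT females gave 3 libraries at day 6 of pregnancy (p6) and 3 at day 18 (p18). ΔSE females, which lack the enhancer cluster beside Odam that the labels name Csn_S1-4, gave 4 libraries at p6 and 4 at p18. The single-enhancer lines were labelled p18 only. They were ΔCsn1s2bE (labelled delCsn1s2b-E, 3 libraries), which lacks an enhancer of Csn1s2b, and ΔCsn3PE (labelled delCsn3-PE, 2 libraries), which lacks the proximal enhancer of Csn3. All deletions lie in the casein locus and no collagen gene was targeted. The extraction notes of the single-enhancer lines name WT tissue at lactation, so that their stage is uncertain, and these lines came without WT libraries of their own. The labels do not say whether libraries of a group came from separate animals, and p-values measure the spread between these libraries.

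Reads in genes ranged from 12335300 to 20525200 in the WT and ΔSE libraries and from 26848100 to 30329600 in the single-enhancer lines. The ribosomal precursor Rn45s took 21.7 to 42.9% of them in the WT and ΔSE libraries and 0.0765 to 0.924% in the single-enhancer lines. Csn1s2b was at 41.8 to 215 normalized CPM in WT tissue at p18 and at 2.58 to 15.4 in ΔSE tissue, and Csn3 at 5065 to 6466 and 49.3 to 143. In ΔCsn3PE tissue Csn3 was at 270.04 to 1312 normalized CPM. In ΔCsn1s2bE tissue Csn1s2b was at 27.1 to 48.9 normalized CPM, against 42.9 to 222 in WT tissue on the same scale, so that these ranges overlapped. Normalized CPM are the usual CPM computed with library sizes corrected by TMM factors (the trimmed mean of M values). Each tested difference below is a log2 fold change of the edgeR quasi-likelihood test with its standard error (SE), and a gene was called at a Benjamini-Hochberg adjusted p under 0.05 over all genes of the fit.

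Collagens are secreted proteins whose chains wind around each other into a rigid helix, and each type is built from its own set of chains. Fibroblasts of the mammary stroma make most of the fibrillar collagen, in which types I and III form the fibrils and type V starts them. The type IV network underlies the epithelium, the myoepithelial cells that contract at milk ejection, the adipocytes and the vessels. During pregnancy the epithelium grows into the fat pad, so that in a piece of whole tissue a lower level of a stromal transcript can come from fewer cells of that kind or from less RNA per cell, which cannot be told apart here.

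Start regions are shown for Col9a1, the gene with the largest called change between p6 and p18, and for type IV genes that lie in head-to-head pairs, so that neighbours with unlike values can be set side by side. They are RefSeq sequences of GRCm38.p6 from 250 bases before to 50 after an annotated start, printed 5′ to 3′ on the strand of the gene. The type IX chain gene Col9a1 (chromosome 1, 24177610 to 24252684, + strand) has 2 annotated starts, at the upstream chr1:24177360-24177659 and the internal chr1:24194953-24195252. Counts per gene do not say which of them was used. Capitals mark the half-site TGGCA, or TGCCA on the other strand, of the nuclear factor I family.
Col9a1 upstream start: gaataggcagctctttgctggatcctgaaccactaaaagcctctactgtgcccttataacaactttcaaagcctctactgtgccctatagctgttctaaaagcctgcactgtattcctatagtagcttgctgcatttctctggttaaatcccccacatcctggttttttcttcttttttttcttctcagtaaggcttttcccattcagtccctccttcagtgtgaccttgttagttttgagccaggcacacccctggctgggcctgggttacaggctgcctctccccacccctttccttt
Col9a1 internal start: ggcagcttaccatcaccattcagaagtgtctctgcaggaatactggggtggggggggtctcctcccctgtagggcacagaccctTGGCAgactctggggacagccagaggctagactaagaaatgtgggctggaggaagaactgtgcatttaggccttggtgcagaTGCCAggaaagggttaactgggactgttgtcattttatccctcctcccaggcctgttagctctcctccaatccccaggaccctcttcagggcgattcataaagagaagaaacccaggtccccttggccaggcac

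The type IV genes stand in head-to-head pairs in the genome. Col4a6 (chromosome X, 141165403 to 141474076, - strand) and Col4a5 (141475385 to 141689234, + strand) start 1309 bp apart and are transcribed away from each other. Their windows, chrX:141474027-141474326 and chrX:141475169-141475468, do not overlap and are marked as above. The window of Col4a6 holds no such half-site.
Col4a6: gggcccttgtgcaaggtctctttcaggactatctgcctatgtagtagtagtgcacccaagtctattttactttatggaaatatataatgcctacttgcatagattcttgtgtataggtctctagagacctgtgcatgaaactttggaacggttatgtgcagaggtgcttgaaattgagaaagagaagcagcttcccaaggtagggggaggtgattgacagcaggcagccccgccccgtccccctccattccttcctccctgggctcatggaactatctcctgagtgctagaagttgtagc
Col4a5: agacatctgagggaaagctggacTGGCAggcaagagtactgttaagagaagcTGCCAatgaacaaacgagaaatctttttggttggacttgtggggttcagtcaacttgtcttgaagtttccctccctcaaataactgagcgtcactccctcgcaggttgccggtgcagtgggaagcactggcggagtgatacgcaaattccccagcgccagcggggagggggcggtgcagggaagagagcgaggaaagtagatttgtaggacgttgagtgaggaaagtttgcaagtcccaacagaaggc

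Col4a1 (chromosome 8, 11198423 to 11312826, - strand) and Col4a2 (11312805 to 11449287, + strand) are closer still, with starts 21 bp apart. Their windows, chr8:11312777-11313076 and chr8:11312555-11312854, share 78 bp. Here capitals mark the shared stretch, which reads as the reverse complement in the second gene.
Col4a1: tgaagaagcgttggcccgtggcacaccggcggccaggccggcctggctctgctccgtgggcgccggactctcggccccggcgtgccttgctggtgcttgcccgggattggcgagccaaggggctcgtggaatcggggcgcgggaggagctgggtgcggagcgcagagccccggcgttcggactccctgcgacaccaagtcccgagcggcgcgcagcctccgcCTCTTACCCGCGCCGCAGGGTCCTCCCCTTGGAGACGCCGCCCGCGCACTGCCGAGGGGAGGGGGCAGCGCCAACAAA
Col4a2: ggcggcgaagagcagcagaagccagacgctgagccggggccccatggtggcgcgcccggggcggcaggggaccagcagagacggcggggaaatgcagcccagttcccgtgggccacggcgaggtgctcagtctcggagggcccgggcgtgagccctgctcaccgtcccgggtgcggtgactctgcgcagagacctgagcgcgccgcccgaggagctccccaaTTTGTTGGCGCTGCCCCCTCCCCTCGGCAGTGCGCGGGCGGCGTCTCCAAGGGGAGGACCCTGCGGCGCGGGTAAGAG

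In all, 38 windows were found for 35 of the 44 collagen genes. The STAT5 motif TTCNNNGAA, the same on both strands, stood in 2 of the 38 collagen windows (5.26%) and in 8.3% of all 32851 windows of this length. The nuclear factor I half-site stood in 52.6% of the collagen windows and in 48.9% of all windows, and the E-box CANNTG, whose reverse complement has the same form, in 52.6% and 72.3%. These motifs can overlap each other. The windows with the STAT5 motif belong to Col28a1 and Col6a5, and neither gene was called in any comparison.

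Levels were first compared between genes, as normalized CPM per kb of exon, the only scale on which genes of unequal length are set side by side. In WT tissue at p18 the highest were Col3a1 at a median of 653 per kb (518 to 674, n = 3), Col1a2 at 199 (170.1 to 228), Col4a1 at 148 (115 to 169.5), Col1a1 at 131 (119 to 157) and Col4a2 at 76.8 (68.2 to 93.8). The ranges of Col1a2 and Col4a1 were adjacent without overlap, and those of Col4a1 and Col1a1 overlapped. Col9a1 came next at 52.9 per kb (46.3 to 64.7), above Col6a1 at 42.6 (37.8 to 48.3), whose range it overlapped. In WT tissue at p6 Col9a1 stood at 2.19 per kb (0.909 to 3.48). Type II collagen, the partner of type IX in cartilage, was nearly absent, since Col2a1 had 0, 13 and 4 reads in the WT libraries at p6, 0, 0, 2 and 0 in those of ΔSE tissue at p6 and 0 reads in each of the 7 WT and ΔSE libraries at p18. No fold change is given for it.

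Summed over the 44 genes, the level in WT tissue was 2599, 13477 and 6093 normalized CPM at p6 and 7657, 10016 and 9180.3 at p18. The WT libraries at p6 thus lay both below and above those at p18, with replicate 1 lowest and replicate 2 highest. In ΔSE tissue the sum was 14785, 16759, 18357 and 13469 at p6 and 6163, 6890.4, 10294 and 8838 at p18, and all 4 libraries at p6 were above all 4 at p18. Fibrillar chains made up 44.1 to 71.7% of these reads in WT tissue at p6 and 65.4 to 66.5% at p18. In ΔSE tissue they made up 69.5 to 74.4% at p6 and 55.4 to 63.2% at p18.

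**Figure D1:**
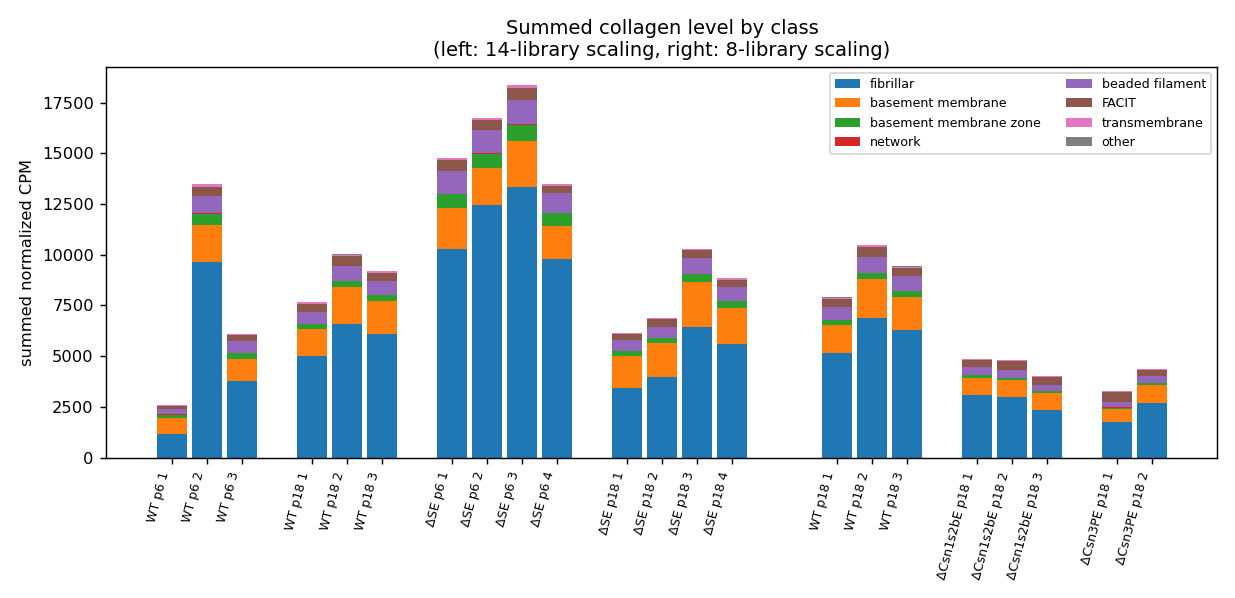
Summed level of the collagen genes (normalized CPM) in each library, stacked by class, with the 14 WT and ΔSE libraries on the scale of their own fit at the left and the 8 libraries of WT and the single-enhancer lines at p18 at the right. The WT libraries at p6 spread from 2599 to 13477, all 4 ΔSE libraries at p6 are at 13469 or above, and the 5 libraries of the single-enhancer lines lie between 3293 and 4857.

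The question of how the collagen genes move through pregnancy was addressed first by WT tissue at p18 against p6. Of 44 genes, 1 was higher (2.27%) and 6 were lower (13.6%), against 17.2% higher and 12.4% lower among all 17844 genes tested. The share of lower genes was thus close to that of all genes. The median log2 fold change of the collagen genes was -0.24, and that of all genes -0.05. The genes that moved were Col9a1 upward and Col4a6, Col8a1, Col8a2, Col9a3, Col13a1 and Col27a1 downward. Library totals in place of TMM gave 13 calls (1 higher and 12 lower), with the median of all genes at -0.42. Of all 17844 genes, 4426 were then called in either direction.

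ΔSE tissue at p18 against p6 had 2 higher genes (4.55%) and 23 lower genes (52.3%), against 17.3% higher and 18.3% lower among all genes tested. The median log2 fold change was -0.98 for the collagen genes and -0.07 for all genes. All 7 genes called in WT tissue were called in the same direction here, 100% of the WT calls and 28.0% of the 25 ΔSE calls. By class the lower genes were 6 of 11 fibrillar chains, 1 of 6 type IV chains, 3 of 3 genes of the basement membrane zone, 2 of 3 network chains, 3 of 6 type VI chains, 5 of 9 FACIT genes and 3 of 4 transmembrane genes. Library totals in place of TMM gave 35 calls (1 higher and 34 lower), with the median of all genes at -0.65. Of all 17844 genes, 8595 were then called in either direction.

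**Figure D2:**
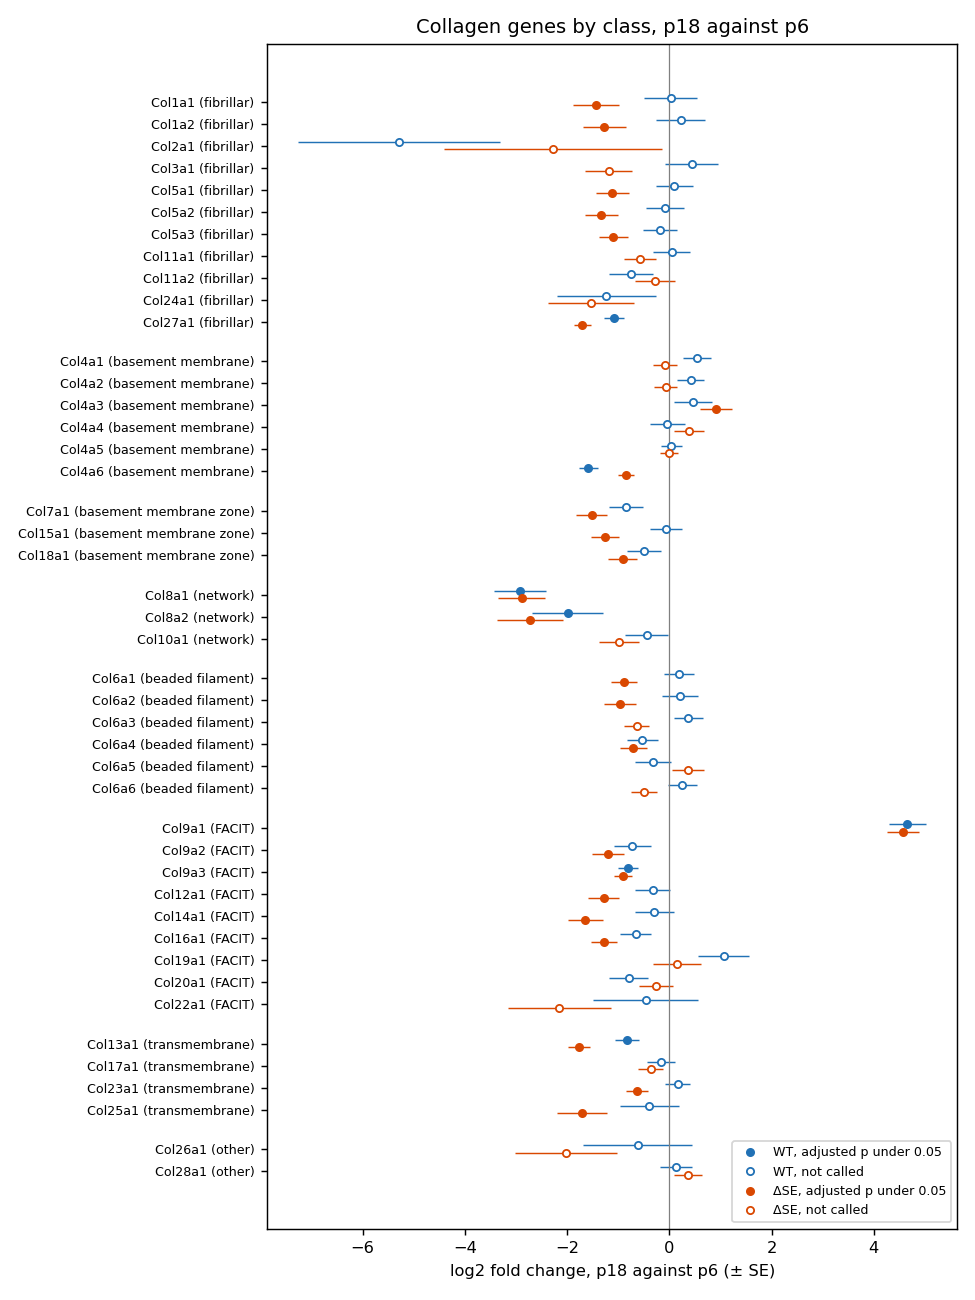
Log2 fold change of each collagen gene at p18 against p6 (x axis, bars are SE) in WT (blue) and ΔSE tissue (orange), grouped by class, with filled points for an adjusted p under 0.05. Col9a1 is far to the right in both genotypes, Col8a1, Col8a2 and Col4a6 are to the left in both, and 5 of 11 fibrillar genes and 4 of 9 FACIT genes are filled in ΔSE and open in WT tissue. Col2a1, which had few reads, is far to the left in WT tissue.

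Col9a1 encodes a chain of type IX collagen, a FACIT collagen best known from the surface of cartilage fibrils. Its level in WT tissue was 14.3, 3.73 and 8.99 normalized CPM at p6 and 217, 266 and 190.1 at p18. In ΔSE tissue it was 7.9, 5.32, 9.43 and 5.15 at p6 and 178, 182, 158 and 139 at p18. Every library at p18, the lowest at 139, was far above every library at p6, the highest at 14.3. Col9a1 rose 25.3-fold in WT tissue (log2 fold change 4.66 ± 0.36 SE, adjusted p = 6.0e-07) and 23.8-fold in ΔSE tissue (log2 fold change 4.57 ± 0.32 SE, adjusted p = 1.5e-07). The 2 rises differed by -0.08 ± 0.43 SE on the log2 scale (adjusted p = 0.95), which was less than 1 SE.

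The other chains of type IX collagen were not higher at p18. Col9a3 was at 19.4, 26.9 and 22.3 normalized CPM in WT tissue at p6 and 11, 12.2 and 16.1 at p18, and at 31.9, 24.2, 32.4 and 22.6 at p6 and 12.4, 17.2, 17.2 and 12.3 at p18 in ΔSE tissue. The days did not overlap in either genotype, and Col9a3 fell in WT tissue (log2 fold change -0.80 ± 0.20 SE, adjusted p = 0.0063) and in ΔSE tissue (log2 fold change -0.91 ± 0.17 SE, adjusted p = 7.9e-04). Col9a2 was at 8.17, 27.4 and 9.59 in WT tissue at p6 and 7.7, 10.3 and 9.49 at p18, which overlapped (log2 fold change -0.72 ± 0.35 SE, adjusted p = 0.14). In ΔSE tissue Col9a2 fell from 30.0, 19.96, 33.2 and 18.4 to 9.67, 11.2, 13.2 and 9.98 (log2 fold change -1.20 ± 0.31 SE, adjusted p = 0.0064). The ratio of Col9a1 to Col9a3 reads within a library went from 0.735, 0.139 and 0.404 to 19.8, 21.8 and 11.8 in WT tissue. This pair was chosen after the values were seen and carries no test.

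Type VIII collagen is a short-chain network collagen known from vessel walls and from the membrane behind the cornea. Col8a1 was at 14.1, 21.2 and 5.03 normalized CPM in WT tissue at p6 and 1.09, 2.07 and 2.09 at p18. In ΔSE tissue Col8a1 was at 13.6, 22.1, 15.1 and 5.34 at p6 and 2.49, 1.8, 1.6 and 1.72 at p18. No library at p18 reached the lowest library at p6. Col8a1 fell 7.57-fold in WT (log2 fold change -2.92 ± 0.51 SE, adjusted p = 5.4e-04) and 7.42-fold in ΔSE tissue (log2 fold change -2.89 ± 0.45 SE, adjusted p = 1.6e-04). Its partner chain Col8a2 was scarce, with 15, 48 and 30 reads in the WT libraries at p6 and 8, 8 and 4 at p18, and 38, 52, 28 and 22 at p6 and 0, 0, 6 and 10 at p18 in the ΔSE libraries. It was called lower in WT (log2 fold change -1.99 ± 0.70 SE, adjusted p = 0.041) and ΔSE tissue (log2 fold change -2.73 ± 0.65 SE, adjusted p = 0.0038), on few reads. The WT call of Col8a2 was lost in 7 of its 14 alternatives, among them the fits without WT replicate 2 or 3 at p6 and without each of the WT libraries at p18 (adjusted p up to 0.15). Col10a1, the network chain of growth plate cartilage, was not called (-0.44 ± 0.42 SE, adjusted p = 0.47 in WT, -0.99 ± 0.39 SE, adjusted p = 0.058 in ΔSE tissue).

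The type IV genes diverged within a pair of neighbours. Col4a6 was at 102, 96.7 and 74.1 normalized CPM in WT tissue at p6 and 30.1, 31.8 and 29.2 at p18, and at 75.5, 66.8, 71.1 and 52.6 at p6 and 26.3, 37.6, 39.5 and 44.3 at p18 in ΔSE tissue. The days did not overlap, and Col4a6 fell 2.99-fold in WT (log2 fold change -1.58 ± 0.18 SE, adjusted p = 1.6e-05) and 1.8-fold in ΔSE tissue (log2 fold change -0.85 ± 0.16 SE, adjusted p = 6.1e-04). Col4a5, which starts 1309 bp away and whose product assembles with that of Col4a6, was at 85.5, 117 and 66.8 at p6 and 79.2, 96.9 and 101 at p18 in WT tissue, ranges that overlapped, and at 108, 87.1, 93.3 and 61 at p6 and 76.3, 84.4, 93.1 and 95.5 at p18 in ΔSE tissue. Its difference between days was 0.04 ± 0.20 SE in WT (adjusted p = 0.9) and 0.00 ± 0.18 SE in ΔSE tissue (adjusted p = 1) on the log2 scale. The ratio of Col4a6 to Col4a5 reads was 1.19, 0.828 and 1.11 in the WT libraries at p6 and 0.38, 0.328 and 0.291 at p18. In ΔSE tissue it was 0.699, 0.767, 0.761 and 0.863 at p6 and 0.344, 0.446, 0.425 and 0.464 at p18. This pair was also chosen after the values were seen. Among the collagen genes, Col4a6 had the smallest p for an unequal change in the 2 genotypes (interaction 0.73 ± 0.24 SE, adjusted p = 0.15), which did not pass.

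Col4a1 and Col4a2 encode the chains of the most widespread type IV molecule. Col4a1 was at 379.7, 995 and 599 normalized CPM in WT tissue at p6 and 765, 1128 and 986 at p18, and at 1206, 1059, 1319 and 1007 at p6 and 923, 959, 1355 and 1104 at p18 in ΔSE tissue. Col4a2 was at 222, 583 and 344 at p6 and 439.7, 605 and 496 at p18 in WT tissue, and at 650.1, 584, 767 and 532 at p6 and 552, 579, 717 and 563 at p18 in ΔSE tissue. The days overlapped for both genes in both genotypes, and neither was called (Col4a1 0.54 ± 0.27 SE, adjusted p = 0.15 in WT and -0.08 ± 0.24 SE, adjusted p = 0.82 in ΔSE tissue). The 5′ ends of the genes overlap. Although the kit keeps the strand, the strand setting of the counting is not given in the sources used here. How reads from the overlap were counted is therefore not known. The reads of the pair kept a narrow ratio, with Col4a1 at 1.71, 1.71 and 1.74 times Col4a2 in the WT libraries at p6 and 1.74, 1.86 and 1.99 at p18. Col4a3 and Col4a4, which form a kidney and lung type IV molecule with the product of Col4a5, were near 1 to 4 normalized CPM. Col4a3 was higher at p18 in ΔSE tissue (log2 fold change 0.91 ± 0.32 SE, adjusted p = 0.036) and not called in WT (0.47 ± 0.37 SE, adjusted p = 0.37).

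**Figure D3:**
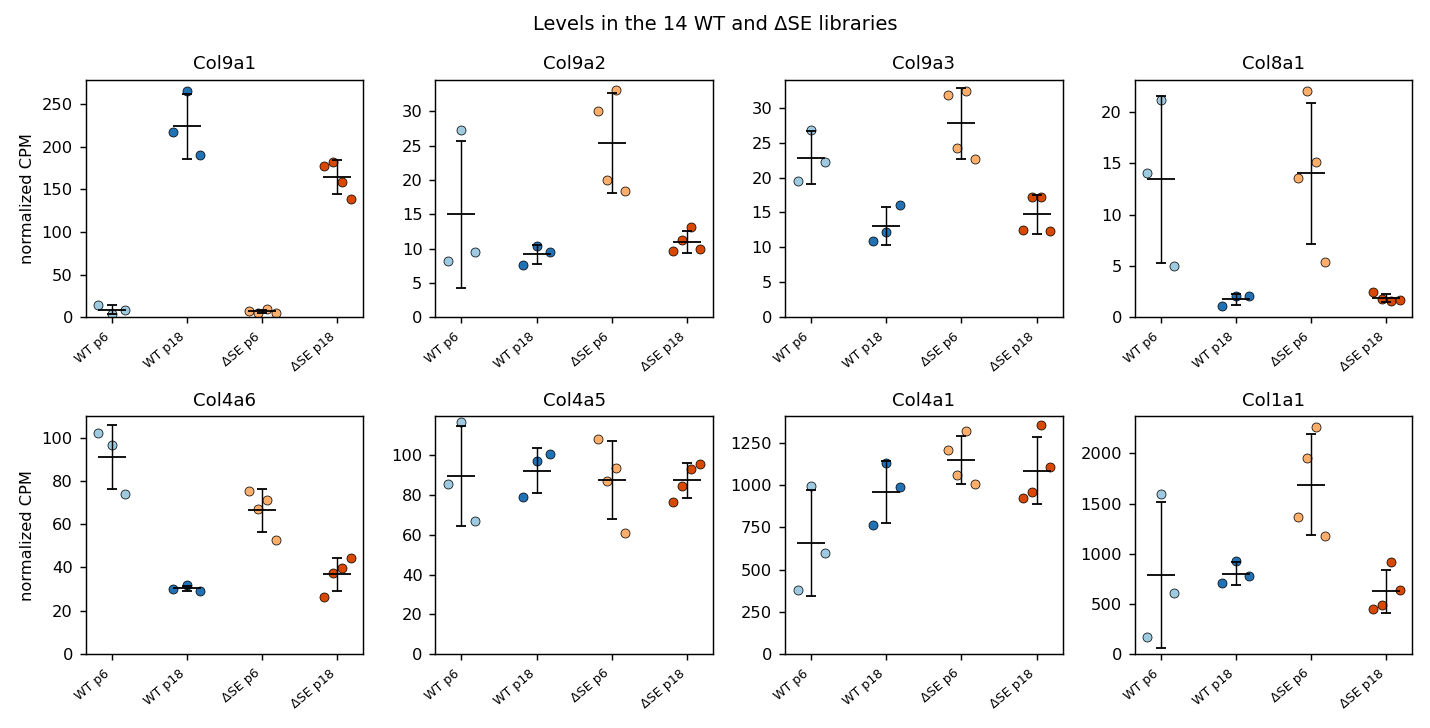
Levels (y axis, normalized CPM from 0) of 8 collagen genes in each WT and ΔSE library, as points, with the group mean (bar) and SD (whiskers). Col9a1 is high at p18 and low at p6, Col9a3, Col8a1 and Col4a6 are lower at p18 in both genotypes, Col4a5 and Col4a1 overlap between days, and the 3 WT libraries at p6 are far apart for Col1a1.

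The genes of the interstitial fibrils did not pass in WT tissue. Col1a1 was at 166, 1592 and 606 normalized CPM in WT tissue at p6 and 704, 928 and 774 at p18 (log2 fold change 0.03 ± 0.51 SE, adjusted p = 0.98). Col1a2 was at 221, 1793 and 815 at p6 and 941, 1262 and 1099 at p18 (log2 fold change 0.22 ± 0.47 SE, adjusted p = 0.77). Col3a1 was at 477, 5223 and 1881 at p6 and 2880.0, 3749 and 3633 at p18 (log2 fold change 0.44 ± 0.52 SE, adjusted p = 0.57). For each of these genes replicate 1 at p6 was below and replicate 2 above every library at p18, and the SE was wide.

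In ΔSE tissue the type I genes were lower at p18. Col1a1 was at 1365, 1951, 2259 and 1179 at p6 and 449, 489, 917 and 642 at p18, without overlap, and fell 2.71-fold (log2 fold change -1.44 ± 0.45 SE, adjusted p = 0.021). Col1a2 was at 1900.2, 2391, 2425 and 1706 at p6 and 579, 688, 1239.6 and 984 at p18 and fell 2.41-fold (log2 fold change -1.27 ± 0.42 SE, adjusted p = 0.026). Col3a1, from 5771, 6749, 7059.6 and 5815 to 1940.4, 2317, 3533 and 3355, did not overlap between days but missed the threshold (log2 fold change -1.19 ± 0.46 SE, adjusted p = 0.053). The Col1a1 and Col1a2 calls were lost without ΔSE replicate 2 or 3 at p6 or ΔSE replicate 1 or 2 at p18, with adjusted p up to 0.067 for Col1a1 and 0.081 for Col1a2.

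Type V collagen nucleates fibrils, and its genes were called lower at p18 in ΔSE tissue. Col5a1 was at 71, 304 and 139 in WT tissue at p6 and 154, 215 and 182 at p18, which overlapped (log2 fold change 0.10 ± 0.36 SE, adjusted p = 0.87). In ΔSE tissue Col5a1 was at 333, 378, 458 and 287 at p6 and 126, 149, 225 and 173 at p18 and fell (log2 fold change -1.11 ± 0.32 SE, adjusted p = 0.012). Col5a3 was at 77.2, 216 and 68.2 at p6 and 87.1, 112 and 118 at p18 in WT tissue (log2 fold change -0.19 ± 0.33 SE, adjusted p = 0.71). In ΔSE tissue Col5a3 fell from 214, 243, 339 and 217 to 104, 104, 152 and 114 (log2 fold change -1.09 ± 0.29 SE, adjusted p = 0.0076). Col5a2 fell in ΔSE tissue as well (log2 fold change -1.33 ± 0.33 SE, adjusted p = 0.0047). Col27a1, a fibrillar collagen of cartilage, was the fibrillar gene that fell in both genotypes. It was at 21, 19.9 and 12.7 at p6 and 9.06, 8.14 and 7.87 at p18 in WT tissue (log2 fold change -1.09 ± 0.20 SE, adjusted p = 6.2e-04), and at 20.7, 26.5, 30.0 and 21.7 at p6 and 7.65, 6.47, 8.89 and 7.33 at p18 in ΔSE tissue (log2 fold change -1.70 ± 0.17 SE, adjusted p = 3.4e-06).

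FACIT collagens sit on the surface of fibrils. Col14a1 was at 29.3, 154 and 105 in WT tissue at p6 and 72.6, 76.7 and 85.9 at p18 (log2 fold change -0.29 ± 0.39 SE, adjusted p = 0.61). In ΔSE tissue Col14a1 was at 212, 204, 186 and 122 at p6 and 38, 60.3, 65.4 and 67.1 at p18 and fell 3.13-fold (log2 fold change -1.65 ± 0.34 SE, adjusted p = 0.0015). Col12a1 was at 16, 59.5 and 32.6 at p6 and 28.4, 26.1 and 32 at p18 in WT tissue (log2 fold change -0.33 ± 0.35 SE, adjusted p = 0.52). In ΔSE tissue it was at 89.7, 89, 95.1 and 44 at p6, where replicate 4 was far below the others, and 27, 26.9, 38.3 and 38.3 at p18 (log2 fold change -1.28 ± 0.30 SE, adjusted p = 0.0039). Col16a1 fell in ΔSE tissue from 187, 183, 231 and 142 to 60.5, 72.9, 94.7 and 77.8 (log2 fold change -1.28 ± 0.26 SE, adjusted p = 0.0012). In WT tissue, at 65.4, 197 and 90.8 at p6 and 71.2, 84.2 and 68.8 at p18, it missed the threshold (log2 fold change -0.66 ± 0.30 SE, adjusted p = 0.11).

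Type VI collagen forms beaded filaments around cells. Col6a1 was at 69.4, 227 and 167 in WT tissue at p6 and 155, 198 and 175 at p18 (log2 fold change 0.19 ± 0.29 SE, adjusted p = 0.67). In ΔSE tissue Col6a1 fell from 336, 308, 354 and 278 to 138, 149, 207 and 195 (log2 fold change -0.89 ± 0.25 SE, adjusted p = 0.011). Col6a3 was at 116, 357 and 262 at p6 and 255, 362 and 337 at p18 in WT tissue (log2 fold change 0.37 ± 0.29 SE, adjusted p = 0.36). In ΔSE tissue Col6a3, at 489, 497, 499 and 451 at p6 and 254, 251, 388 and 348 at p18, did not overlap between days but did not pass (log2 fold change -0.64 ± 0.25 SE, adjusted p = 0.056). Col6a2 (-0.97 ± 0.31 SE, adjusted p = 0.022) and Col6a4 (-0.70 ± 0.26 SE, adjusted p = 0.049) were called lower in ΔSE tissue, whereas Col6a5 and Col6a6 were not called.

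Among the collagens of the basement membrane zone, Col15a1 was at 68.1, 266 and 164 in WT tissue at p6 and 137, 167 and 173 at p18 (log2 fold change -0.07 ± 0.32 SE, adjusted p = 0.9). In ΔSE tissue Col15a1 was at 349, 353, 419 and 362 at p6 and 131, 129.7, 198 and 162 at p18 and fell 2.39-fold (log2 fold change -1.26 ± 0.28 SE, adjusted p = 0.0023). Col18a1, the source of endostatin, was at 38.9, 132 and 61.3 at p6 and 49.1, 54.6 and 60.9 at p18 in WT tissue (log2 fold change -0.50 ± 0.33 SE, adjusted p = 0.28). In ΔSE tissue Col18a1 was at 139.6, 155, 162 and 109.8 at p6 and 53.2, 61.4, 108 and 78.1 at p18 (log2 fold change -0.91 ± 0.29 SE, adjusted p = 0.021), a call that was lost without any of the same 4 libraries (adjusted p up to 0.073). Col7a1, the collagen of anchoring fibrils, fell in ΔSE tissue from 172, 210.0, 233 and 125 to 54.3, 55, 86.4 and 61.9 (log2 fold change -1.52 ± 0.30 SE, adjusted p = 9.0e-04). In WT tissue it was at 70.8, 178 and 59.2 at p6 and 70.8, 52.9 and 47.9 at p18 and did not pass (log2 fold change -0.85 ± 0.34 SE, adjusted p = 0.069).

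Of the transmembrane collagens, Col13a1 was at 5.67, 11.4 and 6.13 at p6 and 4.23, 4.69 and 4.17 at p18 in WT tissue (log2 fold change -0.83 ± 0.24 SE, adjusted p = 0.015) and at 11.5, 14.2, 13.2 and 15.3 at p6 and 3.68, 3.32, 4.54 and 4.3 at p18 in ΔSE tissue (log2 fold change -1.77 ± 0.21 SE, adjusted p = 1.4e-05), and fell in both. The WT call was lost without WT replicate 2 at p6 (adjusted p = 0.098) or WT replicate 3 at p18 (0.052). Col17a1, a component of the hemidesmosomes that tie basal epithelial cells to the basement membrane, was at 33.7, 91.8 and 55.9 at p6 and 54, 56.8 and 51.9 at p18 in WT tissue (log2 fold change -0.16 ± 0.28 SE, adjusted p = 0.71). In ΔSE tissue Col17a1 was at 64.3, 64.4, 84.2 and 40.4 at p6 and 39.9, 50.6, 54.2 and 52.5 at p18 (log2 fold change -0.36 ± 0.24 SE, adjusted p = 0.27), with overlap between days. Col23a1 (-0.63 ± 0.21 SE, adjusted p = 0.029) and Col25a1 (-1.71 ± 0.48 SE, adjusted p = 0.011) were called lower in ΔSE tissue.

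Whether the 2 genotypes differed was tested directly. At p6 no collagen gene passed for ΔSE against WT by edgeR, against 0.499% higher and 0.527% lower of all genes. However, 24 of 44 had an unadjusted p under 0.05, against 3034 of all 17844 genes. DESeq2 called 10 collagen genes higher, among 908 genes called in either direction. The median log2 fold change was 0.69, and 32 of 44 values were positive. The nearest to the threshold was Col15a1 (log2 fold change 1.16 ± 0.30 SE, adjusted p = 0.071), followed by Col6a1 (log2 fold change 1.05 ± 0.28 SE, adjusted p = 0.072). Without WT replicate 2 at p6, the WT library with the highest collagen sum, 23 collagen genes were called. The number of all genes called in that fit is not given here, so this count has no share beside it. At p18 no collagen gene was called by edgeR or DESeq2, against 0.101% higher and 0.213% lower of all genes by edgeR. An unadjusted p under 0.05 was found for 1 collagen gene and for 2200 of all 17844 genes. The median was -0.02. At p18 the differences of ΔSE from WT were -0.36 ± 0.48 SE for Col1a1, -0.30 ± 0.48 for Col3a1, 0.18 ± 0.26 for Col4a1 and -0.45 ± 0.29 for Col9a1 on the log2 scale.

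The change from p6 to p18 in ΔSE minus that in WT tissue (the interaction) had no called collagen gene by edgeR or DESeq2, against 0.0897% higher and 0.0616% lower of all genes. The median was -0.63 over the collagen genes and -0.06 over all genes. An unadjusted p under 0.05 was found for 14 collagen genes and for 2955 of all 17844 genes. Without WT replicate 2 at p6, 18 collagen genes were called, and the number of all genes called in that fit is not given here. The larger number of stage calls in ΔSE tissue is therefore not shown to differ from WT with all libraries. In WT tissue itself, 14 collagen genes were called between days without replicate 1 at p6, in place of 7. For this fit too the share of all genes is not given.

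Markers of other cells moved beside these values. The summed level of 8 fibroblast markers was 192, 413 and 370.0 normalized CPM in the WT libraries at p6, with replicate 1 lowest as for the collagens, and 589, 603, 563 and 622 in the ΔSE libraries at p6. At p18 it was 259 to 309.9 in WT and 226 to 310.4 in ΔSE tissue. All 8 fibroblast markers were called lower at p18 in ΔSE tissue and 1 of 8 in WT. Among all genes 17.2% were higher and 12.4% lower in WT, and 17.3% and 18.3% in ΔSE tissue. The marker counts between days, here and in the next paragraph, stand against these shares. Pdgfrb, a receptor of fibroblasts and pericytes, fell in both (-0.62, adjusted p = 0.0026 in WT, -0.99, adjusted p = 1.2e-05 in ΔSE), and Pdgfra in ΔSE tissue (-1.15, adjusted p = 3.2e-04). For ΔSE against WT at p6, 2 of 8 were called higher, against 0.499% of all genes, and at p18 none was, against 0.101%. None of the fibroblast markers was at 0 in any library. The part of cell makeup in the collagen values was not tested.

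The 8 adipocyte markers summed to 1797 to 2657 at p6 and 1556 to 1653 at p18 in WT tissue and to 2388 to 4736 and 1479 to 1846 in ΔSE tissue, with 1 and 5 of 8 called lower. The 7 luminal markers summed to 842 to 1060.1 and 1507 to 1997 in WT and to 492 to 938 and 1631 to 1920.1 in ΔSE tissue, with 2 of 7 and 7 of 7 called higher. The 8 myoepithelial markers summed to 516 to 1138 and 1527 to 1749 in WT and to 771 to 1134 and 1523 to 1631 in ΔSE tissue, with 3 called higher and 1 lower in WT and 3 higher and 2 lower in ΔSE tissue. Endothelial markers had 0 of 6 called in WT and 2 of 6 lower in ΔSE tissue, pericyte markers 1 higher and 1 lower of 5 in WT and 1 of 5 lower in ΔSE tissue, and Schwann cell markers 1 higher and 3 lower of 6 in WT and 2 higher and 3 lower in ΔSE tissue. Leukocyte markers had 0 of 7 called in WT and 2 lower in ΔSE tissue. The 7 skeletal muscle markers were uneven, at 1341, 2369 and 2419 in the WT libraries at p6, 3.95, 1049 and 1583 at p18, 55.1, 2973, 129 and 3764 in ΔSE tissue at p6 and 5.62, 6.82, 5.95 and 15.1 at p18, and 0 of 7 were called in WT and 7 of 7 lower in ΔSE tissue. A library at 0 was found for 2 of the muscle and 1 of the leukocyte markers. The part of muscle in the collagen values was not tested.

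Genes that modify, export, cut, cross-link, bind or degrade collagen were read from lists. Among 15 genes of prolyl and lysyl hydroxylation, 4 rose and none fell in WT tissue, while 3 rose and 7 fell in ΔSE tissue. Over all genes 17.2% rose and 12.4% fell in WT, and 17.3% and 18.3% in ΔSE tissue, and the counts of every list below stand against these shares. The prolyl hydroxylase subunit P4hb rose in both (1.69, adjusted p = 8.6e-06 in WT, 0.94, adjusted p = 2.3e-04 in ΔSE), as did the prolyl hydroxylase P3h2 (1.29, adjusted p = 3.3e-04 in WT, 1.68, adjusted p = 7.0e-06 in ΔSE), whereas P4ha1 fell in ΔSE tissue (-1.07, adjusted p = 3.5e-04). P4hb is also the general disulfide isomerase of the secretory pathway. Of 8 folding and export genes, 3 rose in WT, and 1 rose and 4 fell in ΔSE tissue. The export receptor Mia3 rose in both (0.83, adjusted p = 1.4e-04 in WT, 0.79, adjusted p = 4.5e-05 in ΔSE), and the collagen chaperone Serpinh1 fell in ΔSE tissue (-1.24, adjusted p = 0.0068).

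Of 9 propeptide removal genes, 1 rose and 2 fell in WT and 1 rose and 6 fell in ΔSE tissue, among them the procollagen protease Bmp1 in both (-0.59, adjusted p = 0.0074 in WT, -1.09, adjusted p = 1.5e-05 in ΔSE). Of 5 cross-linking genes, 1 rose in WT, the lysyl oxidase Lox (1.00, adjusted p = 0.0014), and 2 fell in ΔSE tissue, Loxl1 (-1.88, adjusted p = 0.0018) and Loxl3 (-0.97, adjusted p = 3.1e-04). Of 12 fibril assembly genes, 2 rose in WT, and 1 rose and 7 fell in ΔSE tissue. Fibromodulin, Fmod, rose in both (1.64, adjusted p = 0.0054 in WT, 1.91, adjusted p = 5.9e-04 in ΔSE), and biglycan, Bgn, fell in ΔSE tissue (-0.998, adjusted p = 4.3e-04). Of 10 collagen receptors, 1 rose in WT, and 1 rose and 3 fell in ΔSE tissue, where Ddr2, the discoidin receptor of stromal cells, fell (-1.21, adjusted p = 3.6e-05) and Ddr1, its epithelial relative, rose (0.69, adjusted p = 0.0033).

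Of 12 breakdown genes, 1 rose and 1 fell in WT and 1 rose and 3 fell in ΔSE tissue. The membrane protease Mmp14 fell in both (-0.79, adjusted p = 0.019 in WT, -1.03, adjusted p = 0.0011 in ΔSE). Of 15 basement membrane partners, 1 rose and 2 fell in WT and 2 rose and 8 fell in ΔSE tissue. The laminin chain Lamb3 rose in both (1.19, adjusted p = 0.0011 in WT, 0.78, adjusted p = 0.0061 in ΔSE). Among the partner lists, the medians ranged from -0.59 to 0.27 in WT and from -0.97 to 0.05 in ΔSE tissue, and the medians of all genes were -0.05 and -0.07.

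The single-enhancer lines were compared with WT tissue at p18 in a fit of their own, where 43 collagen genes were tested. In ΔCsn1s2bE tissue none was higher and 25 were lower, against 17.2% higher and 15% lower among all 17125 genes tested. In ΔCsn3PE tissue none was higher and 27 were lower, against 13.7% and 11.5%. DESeq2 called none higher and 26 and 30 lower, among 5671 and 4635 genes called in either direction. With library totals, which moved the median of all genes to 0.40 and 0.42, 1 was higher and 15 were lower in ΔCsn1s2bE, and 2 were higher and 16 lower in ΔCsn3PE tissue. Of all 17125 genes, 6318 and 5730 were then called in either direction. The median log2 fold changes were -0.91 and -1.20, beside 0.00 for all genes in both. Both comparisons share the WT libraries. As the lines and their set of libraries differ from WT together, a difference between lines and WT cannot be told apart from one between sets.

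Col1a1 was at 726, 971 and 795 normalized CPM in WT tissue, 161, 164 and 173 in ΔCsn1s2bE and 86.7 and 151 in ΔCsn3PE tissue. The WT libraries were all above the others, and Col1a1 was 5.003-fold lower in ΔCsn1s2bE (log2 fold change -2.32 ± 0.21 SE, adjusted p = 1.2e-04) and 6.997-fold lower in ΔCsn3PE tissue (log2 fold change -2.81 ± 0.25 SE, adjusted p = 3.7e-04). Col1a2, whose product joins that of Col1a1 in type I collagen, was at 970.2, 1320.0 and 1129 in WT, 489, 490.1 and 404 in ΔCsn1s2bE and 279 and 448 in ΔCsn3PE tissue, which was 2.47-fold and 3.13-fold lower (-1.31 ± 0.20 SE, adjusted p = 0.0015 for ΔCsn1s2bE, and -1.65 ± 0.24 SE, adjusted p = 0.002 for ΔCsn3PE). Col3a1 was at 2970.5, 3921 and 3730.1 in WT, 2117, 2019.7 and 1522 in ΔCsn1s2bE and 1189.7 and 1829 in ΔCsn3PE tissue (-0.91 ± 0.23 SE, adjusted p = 0.012 for ΔCsn1s2bE, and -1.23 ± 0.26 SE, adjusted p = 0.0089 for ΔCsn3PE).

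Col6a2 had the smallest p in both lines. It was at 154, 183 and 174 in WT, 48.3, 46.9 and 44 in ΔCsn1s2bE (log2 fold change -1.88 ± 0.13 SE, adjusted p = 3.6e-05) and 38 and 48.6 in ΔCsn3PE tissue (log2 fold change -1.97 ± 0.15 SE, adjusted p = 1.7e-04). Col6a1 was at 159.9, 207 and 179.5 in WT, 95.4, 79.7 and 73.9 in ΔCsn1s2bE and 72.9 and 90.2 in ΔCsn3PE tissue (-1.13 ± 0.15 SE, adjusted p = 7.3e-04 for ΔCsn1s2bE, and -1.16 ± 0.17 SE, adjusted p = 0.0022 for ΔCsn3PE), and Col6a3 at 263, 379 and 346 in WT, 260.5, 214 and 185 in ΔCsn1s2bE and 150.1 and 194 in ΔCsn3PE tissue (-0.58 ± 0.18 SE, adjusted p = 0.034 for ΔCsn1s2bE, and -0.94 ± 0.21 SE, adjusted p = 0.011 for ΔCsn3PE). The main chains of type VI collagen, which join in one molecule, were thus all called lower. Col18a1 was at 50.6, 57.1 and 62.5 in WT, 21.7, 18.3 and 21.3 in ΔCsn1s2bE and 20.8 and 22.9 in ΔCsn3PE tissue (-1.47 ± 0.13 SE, adjusted p = 1.0e-04 for ΔCsn1s2bE, and -1.38 ± 0.14 SE, adjusted p = 4.7e-04 for ΔCsn3PE).

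Col4a1 and Col4a2, which overlapped between days in WT and ΔSE tissue, were lower in the lines. Col4a1 was at 789, 1179 and 1013 in WT, 524, 529 and 484 in ΔCsn1s2bE (log2 fold change -0.96 ± 0.20 SE, adjusted p = 0.0048) and 340.1 and 506 in ΔCsn3PE tissue (log2 fold change -1.23 ± 0.23 SE, adjusted p = 0.005). Col4a2 was 2.41-fold and 2.88-fold lower (-1.27 ± 0.16 SE, adjusted p = 6.6e-04 for ΔCsn1s2bE, and -1.52 ± 0.19 SE, adjusted p = 0.0011 for ΔCsn3PE). Of the genes that moved between p6 and p18 in both genotypes, Col9a1, Col4a6, Col8a1 and, on few reads, Col8a2 were not called here. Col9a1 was at 224, 278 and 195 in WT, 213, 333 and 269 in ΔCsn1s2bE and 386 and 211 in ΔCsn3PE tissue (0.23 ± 0.24 SE, adjusted p = 0.51 for ΔCsn1s2bE, and 0.36 ± 0.27 SE, adjusted p = 0.35 for ΔCsn3PE), Col4a6 at 31.1, 33.3 and 30.0 in WT, 26.5, 23.1 and 28.6 in ΔCsn1s2bE and 36.9 and 34.6 in ΔCsn3PE tissue (-0.27 ± 0.12 SE, adjusted p = 0.11 for ΔCsn1s2bE, and 0.19 ± 0.13 SE, adjusted p = 0.33 for ΔCsn3PE), and Col8a1 at 1.12, 2.16 and 2.14 in WT, 2.63, 1.98 and 2.25 in ΔCsn1s2bE and 2.62 and 2.44 in ΔCsn3PE tissue (0.33 ± 0.28 SE, adjusted p = 0.41 for ΔCsn1s2bE, and 0.47 ± 0.31 SE, adjusted p = 0.29 for ΔCsn3PE). The libraries of both lines overlapped those of WT for Col9a1, and those of ΔCsn1s2bE did so for Col8a1, whereas both ΔCsn3PE libraries were above WT. For Col4a6 they were all below WT in ΔCsn1s2bE and all above it in ΔCsn3PE tissue.

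By class, 8 of 10 fibrillar, 3 of 6 type IV, 3 of 3 basement membrane zone, 1 of 3 network, 5 of 6 type VI, 3 of 9 FACIT and 2 of 4 transmembrane genes were lower in ΔCsn1s2bE tissue. In ΔCsn3PE tissue the counts were the same for every class except FACIT, with 5 of 9. The called genes with the next smallest p stood apart from WT in every library. Col7a1 was at 73, 55.3 and 49.2 in WT, 13.6, 16.9 and 17.9 in ΔCsn1s2bE and 12.9 and 15.2 in ΔCsn3PE tissue (-1.87 ± 0.17 SE, adjusted p = 1.3e-04 for ΔCsn1s2bE, and -2.07 ± 0.20 SE, adjusted p = 3.8e-04 for ΔCsn3PE). Col16a1 was at 73.4, 88.1 and 70.7 in WT, 21.4, 26.1 and 29.6 in ΔCsn1s2bE and 25.1 and 23.9 in ΔCsn3PE tissue (-1.59 ± 0.14 SE, adjusted p = 1.2e-04 for ΔCsn1s2bE, and -1.66 ± 0.17 SE, adjusted p = 4.0e-04 for ΔCsn3PE). Col27a1 was at 9.35, 8.51 and 8.08 in WT, 2.54, 2.89 and 3.33 in ΔCsn1s2bE and 2.24 and 2.31 in ΔCsn3PE tissue (-1.56 ± 0.18 SE, adjusted p = 3.5e-04 for ΔCsn1s2bE, and -1.92 ± 0.21 SE, adjusted p = 5.7e-04 for ΔCsn3PE). The 8 libraries of these genes fell into WT above and the lines below without overlap. Col5a1 was at 159, 224 and 187 in WT, 75.4, 77.4 and 65.9 in ΔCsn1s2bE and 51.9 and 69.1 in ΔCsn3PE tissue (-1.38 ± 0.16 SE, adjusted p = 3.9e-04 for ΔCsn1s2bE, and -1.65 ± 0.19 SE, adjusted p = 6.9e-04 for ΔCsn3PE). Col5a3 was at 89.8, 118 and 121 in WT, 42.1, 31.8 and 36 in ΔCsn1s2bE and 22.6 and 42.9 in ΔCsn3PE tissue (-1.58 ± 0.22 SE, adjusted p = 9.4e-04 for ΔCsn1s2bE, and -1.74 ± 0.26 SE, adjusted p = 0.0022 for ΔCsn3PE). Col13a1 was at 4.36, 4.91 and 4.28 in WT, 1.54, 1.48 and 1.44 in ΔCsn1s2bE and 0.985 and 1.47 in ΔCsn3PE tissue (-1.60 ± 0.23 SE, adjusted p = 0.0011 for ΔCsn1s2bE, and -1.86 ± 0.27 SE, adjusted p = 0.0019 for ΔCsn3PE). 

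Further genes were read whatever their result or among the called genes of a line. Col9a3 was at 11.3, 12.8 and 16.5 in WT, 5.29, 4.38 and 4.96 in ΔCsn1s2bE and 5.98 and 6.02 in ΔCsn3PE tissue (-1.47 ± 0.17 SE, adjusted p = 4.1e-04 for ΔCsn1s2bE, and -1.18 ± 0.20 SE, adjusted p = 0.0035 for ΔCsn3PE). Col9a2 was at 7.94, 10.8 and 9.74 in WT, 3.93, 2.96 and 3.56 in ΔCsn1s2bE and 2.99 and 3.81 in ΔCsn3PE tissue (-1.44 ± 0.19 SE, adjusted p = 7.6e-04 for ΔCsn1s2bE, and -1.48 ± 0.22 SE, adjusted p = 0.0022 for ΔCsn3PE). The chains of type IX collagen other than Col9a1 were thus called lower in both lines. Col12a1 was at 29.3, 27.3 and 32.8 in WT, 25.3, 27.5 and 19.8 in ΔCsn1s2bE and 19.98 and 18.3 in ΔCsn3PE tissue (-0.30 ± 0.15 SE, adjusted p = 0.14 for ΔCsn1s2bE, and -0.64 ± 0.17 SE, adjusted p = 0.019 for ΔCsn3PE). Col14a1 was at 74.9, 80.3 and 88.2 in WT, 60.4, 69.5 and 57.7 in ΔCsn1s2bE and 60.3 and 44.6 in ΔCsn3PE tissue (-0.38 ± 0.14 SE, adjusted p = 0.063 for ΔCsn1s2bE, and -0.63 ± 0.16 SE, adjusted p = 0.017 for ΔCsn3PE). Col15a1 was at 141, 175 and 177 in WT, 80.6, 81.4 and 64.8 in ΔCsn1s2bE and 37.1 and 66.4 in ΔCsn3PE tissue (-1.12 ± 0.20 SE, adjusted p = 0.0027 for ΔCsn1s2bE, and -1.67 ± 0.24 SE, adjusted p = 0.0019 for ΔCsn3PE). Of these genes of fibril surfaces and of the basement membrane zone, Col12a1 and Col14a1 passed in ΔCsn3PE and not in ΔCsn1s2bE tissue, a difference that did not pass between the lines, and Col15a1 passed in both. Col17a1 was at 55.7, 59.4 and 53.3 in WT, 32.1, 40.3 and 41 in ΔCsn1s2bE and 38.6 and 31.3 in ΔCsn3PE tissue (-0.57 ± 0.13 SE, adjusted p = 0.0089 for ΔCsn1s2bE, and -0.68 ± 0.15 SE, adjusted p = 0.01 for ΔCsn3PE). Col17a1, the hemidesmosome chain of basal epithelium, was called lower in both. Without 1 library several calls were lost. They were Col3a1 without ΔCsn1s2bE replicate 3 or ΔCsn3PE replicate 1, Col6a3 in ΔCsn1s2bE without WT replicate 2 or 3 or ΔCsn1s2bE replicate 2 or 3 and in ΔCsn3PE without its replicate 1, Col12a1 without either ΔCsn3PE replicate, and Col14a1 and Col17a1 in ΔCsn3PE without its replicate 2.

 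Between the lines themselves no collagen gene was called by edgeR or DESeq2, against 0.0117% higher and 0.169% lower of all genes by edgeR. An unadjusted p under 0.05 was found for 3 of 43 collagen genes and for 860 of all 17125 genes. The median of ΔCsn1s2bE against ΔCsn3PE was 0.22. Here the smallest p among collagen genes was that of Col11a1 (log2 fold change 0.83 ± 0.22 SE, adjusted p = 0.4), a minor fibrillar chain.

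Ratios of reads taken within each library are free of scaling between libraries, but not of a difference tied to base composition, which is described below. Col1a1 reads were 0.748, 0.735 and 0.704 of Col1a2 reads in the WT libraries at p18 and 0.775, 0.71, 0.74 and 0.652 in ΔSE tissue. In ΔCsn1s2bE tissue the ratio was 0.329, 0.334 and 0.429 and in ΔCsn3PE tissue 0.31 and 0.336. All 14 WT and ΔSE libraries lay between 0.652 and 0.931 and all 5 libraries of the lines between 0.31 and 0.429, without overlap. Col6a1 to Col6a2 was 1.04, 1.13 and 1.03 in WT at p18, 1.97, 1.7 and 1.68 in ΔCsn1s2bE and 1.92 and 1.86 in ΔCsn3PE tissue, and Col3a1 to Col1a1 was 4.09, 4.04 and 4.69 in WT, 13.2, 12.3 and 8.78 in ΔCsn1s2bE and 13.7 and 12.1 in ΔCsn3PE tissue. Col4a1 to Col4a2 was 2.36, 2.31 and 2.3 in ΔCsn1s2bE and 2.13 and 2.42 in ΔCsn3PE tissue, above every WT and ΔSE library. Col5a1 to Col5a2 was 0.696, 0.789 and 0.674 in WT at p18. In the lines it was 0.417, 0.477 and 0.499 (ΔCsn1s2bE) and 0.463 and 0.43 (ΔCsn3PE). The GC percent of the longest coding transcript was 58.9 for Col1a1, 55.7 for Col1a2, 52.5 for Col3a1, 57.7 for Col4a1 and 60.6 for Col4a2. It was 58.0 for Col5a1, 49.6 for Col5a2, 56.7 for Col6a1 and 56.2 for Col6a2. The part of base composition in these ratios was not tested.

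**Figure D4:**
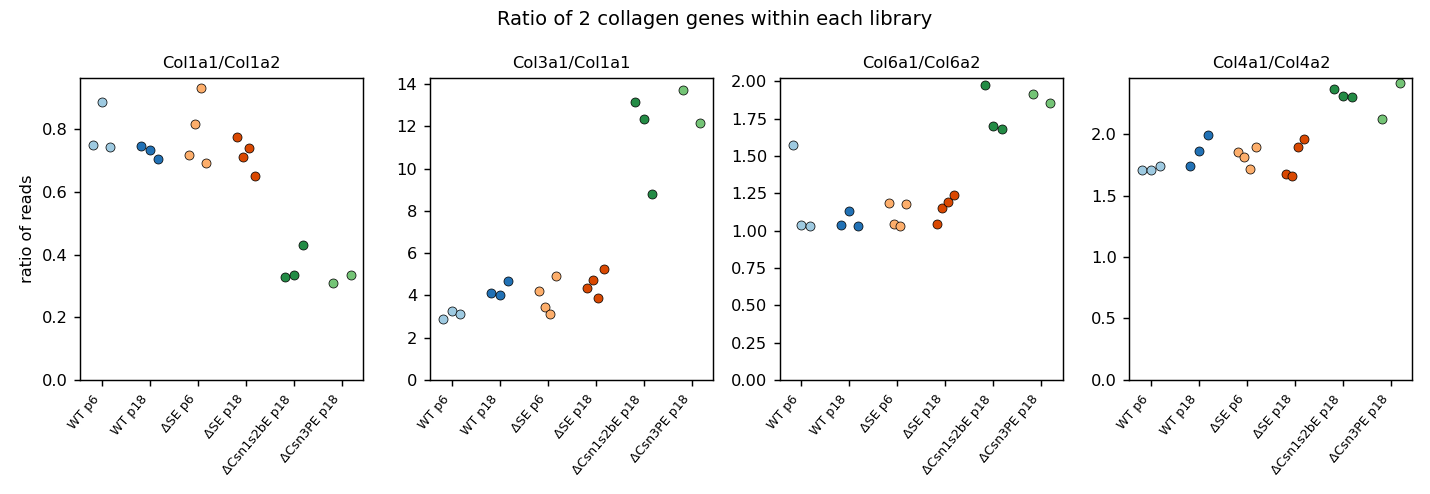
Ratio of the reads of 2 collagen genes (y axis, from 0) in each of the 19 libraries (points), for 4 pairs. The 5 libraries of the single-enhancer lines lie below all others for Col1a1 to Col1a2 and above all others for the remaining pairs, and WT p6 replicate 1 stands apart for Col6a1 to Col6a2 at 1.57.

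Base composition moved with these differences. Collagen transcripts are rich in G and C, with a median of 55.4% against 50.3% for all genes with a value in the fit of WT and ΔSE tissue. Among the collagen genes above their median 18 of 21 were called lower in ΔCsn1s2bE tissue, and at or below it 7 of 22. In ΔCsn3PE tissue the counts were 17 of 21 and 10 of 22. Across the 43 collagen genes the log2 fold change and the GC percent had a Spearman correlation of -0.63 in ΔCsn1s2bE and -0.56 in ΔCsn3PE tissue. Across all genes with a value it was -0.57 and -0.50, and for ΔSE against WT at p18 it was 0.01, both over all genes and over the 44 collagen genes. These are descriptions across genes, which share the same libraries. GC-corrected offsets were an alternative chosen after the values were seen. With them 17 collagen genes were lower in ΔCsn1s2bE and 21 in ΔCsn3PE tissue, and none was higher. Of these, 15 and 20 were among the 25 and 27 called without the correction, and the medians were -0.55 and -0.78. Over all genes 2078 and 2017 were called in either direction with the offsets, against 5526 and 4321 without them. Of the genes described above, Col4a1, Col4a2, Col5a3, Col6a3, Col9a2, Col15a1 and Col17a1 then no longer passed in ΔCsn1s2bE tissue (adjusted p from 0.064 for Col15a1 to 0.71 for Col17a1), nor did Col4a1, Col5a3 and Col17a1 in ΔCsn3PE tissue. Col1a1, Col6a1, Col6a2 and Col18a1 passed in both lines with these offsets. Over all alternatives their smallest differences in ΔCsn1s2bE and ΔCsn3PE tissue were -1.57 and -2.17 for Col1a1 and -0.66 and -0.72 for Col6a1. They were -1.46 and -1.53 for Col6a2 and -0.50 and -0.54 for Col18a1. The part of base composition in the remaining difference was not tested.

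**Figure D5:**
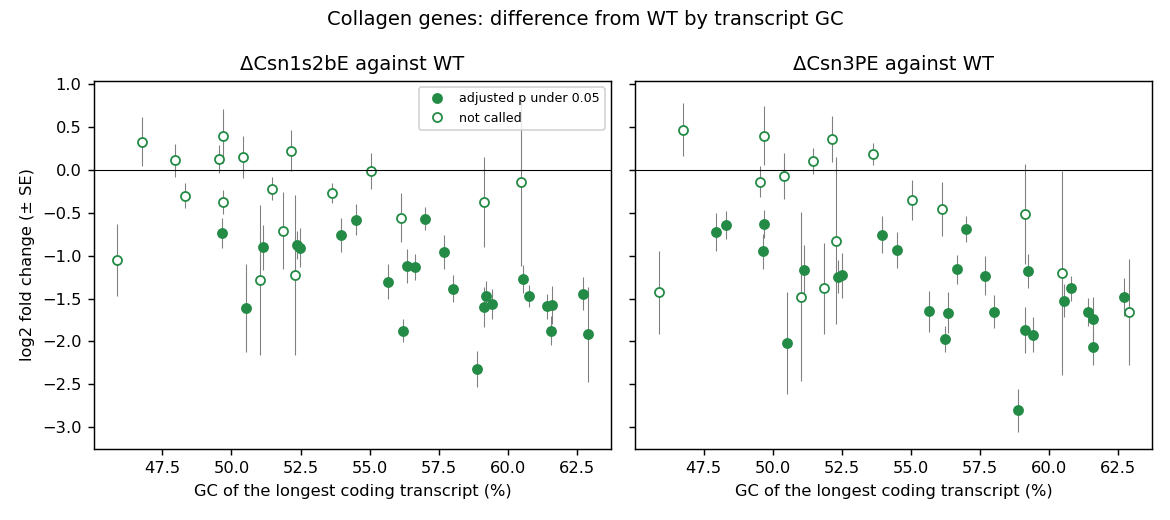
Log2 fold change against WT at p18 (y axis, bars are SE) of 43 collagen genes by the GC percent of their longest coding transcript (x axis), for ΔCsn1s2bE (left) and ΔCsn3PE tissue (right), with filled points for an adjusted p under 0.05. Genes above 55.4% GC all lie below 0, and 18 of 21 and 17 of 21 of them were called lower. The Spearman correlations are -0.63 and -0.56.

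In the lines, fibroblast markers summed to 194 to 239 normalized CPM in ΔCsn1s2bE and 189 to 215 in ΔCsn3PE tissue, against 267 to 319 in WT, and 5 and 4 of 8 were called lower. Pericyte markers summed to 139 to 163 and 109 to 119 against 196 to 224, with 2 and 3 of 5 called lower. Endothelial markers summed to 260 to 323 and 209 to 245 against 288 to 349, with 1 and 2 of 6 lower. Of 8 myoepithelial markers 2 and 1 were lower. Of 6 Schwann cell markers 1 was higher and 1 lower in ΔCsn1s2bE, and 1 lower in ΔCsn3PE tissue. Of 7 leukocyte markers 1 was lower in ΔCsn1s2bE and none in ΔCsn3PE tissue. Luminal markers summed to 1816 to 2223 and 2020.1 to 2371 against 1555 to 2089. Of 7 luminal markers, 3 were called lower in ΔCsn1s2bE, and 1 higher and 1 lower in ΔCsn3PE tissue. Adipocyte markers summed to 1693 to 2554 and 1814 to 2508 against 1627 to 1705, with 3 higher and 2 lower of 8 in ΔCsn1s2bE and 2 higher and 1 lower in ΔCsn3PE tissue. Skeletal muscle markers summed to 18.5 to 677 and 1.53 to 34.2 against 4.08 to 1625, and 0 of 7 were called in either line. Of the partner genes, the basement membrane proteoglycan Hspg2 was lower in both lines (-2.14, adjusted p = 3.6e-05 for ΔCsn1s2bE, and -2.42, adjusted p = 1.7e-04 for ΔCsn3PE), as were the lysyl oxidase Loxl1 (-1.88, adjusted p = 8.5e-05 for ΔCsn1s2bE, and -1.91, adjusted p = 3.7e-04 for ΔCsn3PE), the chaperone Serpinh1 (-1.28, adjusted p = 6.8e-04 for ΔCsn1s2bE, and -1.33, adjusted p = 0.002 for ΔCsn3PE) and the matrix protein Tnxb (-2.09, adjusted p = 1.6e-05 for ΔCsn1s2bE, and -1.83, adjusted p = 1.7e-04 for ΔCsn3PE). Each of these genes had the lowest value of its list in both lines. Of 15 basement membrane partners 0 were higher and 8 lower in ΔCsn1s2bE and 1 higher and 10 lower in ΔCsn3PE tissue, of 15 hydroxylation genes 1 and 4 and 0 and 5, and of 8 folding and export genes 2 and 2 and 1 and 3. Of 5 cross-linking genes the counts were 0 and 3 and 0 and 4, and of 12 fibril assembly genes 1 and 3 and 0 and 3. For 8 propeptide removal genes they were 0 and 4 and 0 and 5. For 9 collagen receptors they were 1 and 4 and 1 and 3, and for 12 breakdown genes 0 and 5 and 1 and 3. The median of the folding and export genes was 0.10 in ΔCsn1s2bE and -0.12 in ΔCsn3PE tissue. That of the fibril assembly genes was -0.03 and -0.16. Among all genes 17.2% were higher and 15% lower in ΔCsn1s2bE, and 13.7% and 11.5% in ΔCsn3PE tissue. The part of cell makeup was not tested here either.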

How the data were processed

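The data were 19 total RNA-seq libraries of mammary tissue. The authors used Trimmomatic (version 0.36) for trimming, STAR (version 2.5.4a) for alignment to mm10 and HTSeq (version 0.9.1) for counting, and the deposited values are raw counts per gene. The RUVSeq step of the study was not applied. The summary entries of the single-enhancer libraries, 23.5 to 30.6% of those files, name no gene and stayed out.

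Counts were tested with edgeR (version 4.0.16, R version 4.3.3), by its quasi-likelihood functions glmQLFit and glmQLFTest after TMM scaling, for genes whose reads in a model came to at least 10. One model held 4 groups (14 WT and ΔSE libraries, 17844 genes) and another 3 groups (8 libraries at p18, 17125 genes), and levels are on the scale of the model concerned. Alternatives were DESeq2 (version 1.42.0), library totals, upper-quartile factors, other filters, only the groups compared, a replicate block and each library left out. GC-corrected offsets (lowess with a span of 0.3 on the longest coding transcript, GENCODE vM21) were added after the data were seen. Replicate numbers in the labels were not treated as pairs.

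The members and gene lists were chosen with earlier results of these data known. The text names 15 collagen genes whatever their result, in each comparison up to 12 called members and up to 4 genes of each list with the smallest p. Other named genes, the 2 ratio pairs said to be so and the motifs were chosen after values were seen. The fits were first tested on simulated data.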

Additional observations from a re-analysis of the deposited data

Results flagged for a closer look

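In ΔSE tissue Col4a2 was at 552, 579, 717 and 563 normalized CPM at p18, and replicate 3, at 717, stood apart from the nearest library at 579. In ΔSE tissue at p6 Col12a1 was at 89.7, 89, 95.1 and 44, and replicate 4, at 44, stood apart from the nearest at 89.0. Each gap exceeded Dixon's 95% limit for 4 samples. Such a gap arises by chance in about 1 of 20 groups, and 50 groups of named genes were examined.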

How the results depend on the processing

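No named gene with a call, in the report or under an alternative run, changed its direction. Of 2176 values of named genes, 1992 kept their direction and side of the threshold, 55 lost a call, 57 gained one and 72, with no call in the report or the alternative, changed sign. For ΔSE against WT at p6, DESeq2 called 10 collagen genes, among 908 genes in all. With library totals, 13 collagen genes were called in WT tissue between days and 16 in ΔCsn1s2bE tissue, among 4426 and 6318 genes in all. Leaving out 1 library gave 5 to 14 calls in WT tissue between days (14 without WT replicate 1 at p6), 0 to 23 for ΔSE against WT at p6 and 0 to 18 for the interaction (23 and 18 without WT replicate 2 at p6), 19 to 25 in ΔSE tissue between days, 21 to 25 in ΔCsn1s2bE and 19 to 27 in ΔCsn3PE tissue. Where this left ΔCsn3PE with 1 library, that library was assumed to vary like the other groups. The numbers of all genes called in the fits without 1 library are not given here, so these counts have no share beside them. With the replicate block the counts were 6 in WT and 27 in ΔSE tissue between days, 22 in each single-enhancer line and 0 elsewhere. Over all genes the block gave 4962 and 5985 calls between days, 4225 in ΔCsn1s2bE and 1963 in ΔCsn3PE tissue. Of the 25 and 27 genes called in ΔCsn1s2bE and ΔCsn3PE tissue in the report, 22 and 21 still passed. The calls lost included Col8a2 in WT tissue (adjusted p = 0.073), Col6a3 in ΔCsn1s2bE (0.068) and Col12a1 and Col14a1 in ΔCsn3PE tissue (0.057 and 0.068). Same-numbered libraries did not deviate together throughout (correlations from -0.43 to 0.26, and not every library correlated best with its own number), so that the block rests on numbers that need not pair the samples.

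Scaled by library totals in place of TMM, the mean summed level (CPM) in ΔSE tissue at p6 was 19732 over all collagen genes, 14294 for fibrillar, 2400.2 for type IV, 867 for basement membrane zone, 1394 for type VI, 634 for FACIT and 112 for transmembrane genes. In ΔSE tissue at p18 it was 1532 for type IV, 300.4 for FACIT and 50.1 for transmembrane genes, and in WT tissue at p18 it was 236 for basement membrane zone, 375 for FACIT, 55.9 for transmembrane and 6.23 for the other genes. In ΔCsn1s2bE tissue it was 5075 over all collagen genes, 939 for type IV, 125 for basement membrane zone, 4.15 for network and 8.97 for the other genes, and in ΔCsn3PE tissue 4.12 for network and 44.7 for transmembrane genes. The cause of these shifts was not tested. Depth limits the genes with few reads, such as Col8a2 and Col2a1.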
